A study of Mus musculus with 7 samples.

Results

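A microRNA (miRNA) count table from mouse colorectum holds 9 entries described here, chosen by name because their hairpins are known from blood cells: mmu-miR-142a-3p, mmu-miR-142a-5p, mmu-miR-142b, mmu-miR-223-3p, mmu-miR-223-5p, mmu-miR-150-5p, mmu-miR-150-3p, mmu-miR-342-3p and mmu-miR-342-5p. They are 9 of 1915 entries, and all 9 were found. The suffixes 5p and 3p name the arms of a hairpin. Small RNA of whole colorectum was sequenced from 6 wild type C57BL/6 female mice, 7 weeks old at the start of the treatment. The 3 healthy mice, M1, M2 and M3, had received 0.9% NaCl. The 3 mice with colorectal cancer (CRC), M4, M5 and M6, were injected with 10 mg/kg of the carcinogen azoxymethane (AOM). After 5 days they drank 2.5% dextran sodium sulfate (DSS), an agent that damages colon epithelium, for 7 days and then plain water for 14 days. The labels place the CRC mice at stage T1, day 17. They describe the cycle of DSS and water as repeated, and the sources used here do not say how many cycles day 17 covers. By the days given, day 17 counted from the injection or from the start of DSS would fall before the 14 days of water end. No group had AOM or DSS alone, so injury, carcinogen and tumour cannot be told apart.

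A miRNA is cut from a hairpin transcript as a duplex of 2 arms, of which 1 usually stays in the silencing complex and pairs with messenger RNAs through its seed. miR-142 is made in nearly all blood lineages and in few other cells, so that in a solid tissue it is used as a trace of blood-derived cells. miR-223 is best known from neutrophils and other myeloid cells, in which it restrains their activation. miR-150 is abundant in mature B and T lymphocytes and represses the transcription factor Myb, and miR-342 is also expressed in lymphoid and myeloid cells. The series is titled for a study of B lymphocytes recruited to colorectal cancer, and these miRNAs are among those in the profiles that blood-derived cells are known for. In whole tissue, fewer cells of a type and less RNA per cell cannot be told apart.

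The 9 deposited sequences are shown because the results turn on which arm is read and on an overlap between entries. They are 5′ to 3′ in DNA letters, with the seed, bases 2 to 8, in capitals.
miR-142a-3p: tGTAGTGTttcctactttatgga
miR-142a-5p: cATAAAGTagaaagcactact
miR-142b: tCCATAAAgtaggaaacact
miR-223-3p: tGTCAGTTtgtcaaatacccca
miR-223-5p: cGTGTATTtgacaagctgagttg
miR-150-5p: tCTCCCAAcccttgtaccagtg
miR-150-3p: cTGGTACAggcctgggggatag
miR-342-3p: tCTCACACagaaatcgcacccgt
miR-342-5p: aGGGGTGCtatctgtgattgag

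No seed was shared among the 9 entries. Of the other entries in the table, 1 carried a seed of this set, miR-5127, which has that of miR-150-5p. RefSeq (GRCm38.p6) held 8 of the 9, all identical to the deposited sequence; miR-150-5p was not matched. The entries are 20 to 23 bases long, so their counts can be compared as numbers of molecules, apart from differences in capture. miR-142a-3p and miR-142b are an exception, since they may share reads.

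The hairpins lie at separate loci of GRCm38 (GENCODE M21), apart from the pair at the miR-142 locus. Mir142 is on the plus strand of chromosome 11 from 87756864 to 87756927, inside an intron of the noncoding Mir142hg. Mir142b lies over it on the minus strand, from 87756841 to 87756955. Mir223 is on chromosome X from 96242817 to 96242926 and overlaps an exon of the noncoding F630028O10Rik. Mir150 is on chromosome 7 from 45121757 to 45121821, in no other annotated gene. Mir342 occupies chromosome 12 from 108658620 to 108658718, within an Evl intron. Evl encodes an actin regulator.

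The entries miR-142a-3p and miR-142b had nearly equal counts in every mouse. The reverse complement of miR-142b makes up bases 4 to 23 of miR-142a-3p, here in capitals.
miR-142a-3p: tgtAGTGTTTCCTACTTTATGGA
The Mir142 hairpin, with its arms in capitals, shows where these bases lie.
Mir142: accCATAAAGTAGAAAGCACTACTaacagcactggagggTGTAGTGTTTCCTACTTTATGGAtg
The count of miR-142b was 8396 reads (M1), 5099 (M2), 91653 (M3), 20487 (M4), 23993 (M5) and 25481 (M6). That of miR-142a-3p was 8080, 4761, 90336, 19907, 23332 and 25218 reads in the same order. In each mouse the shorter entry thus held slightly more reads than the longer one, from 101% of it in M6 to 107% (M2). Among the 14 reverse-complement pairs of the table with at least 1000 reads in an entry, 10 had a smaller entry above 90% of the larger. The sources used here do not say how counting treated strand, and miR-142b is not taken below as support independent of miR-142a-3p.

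**Figure D1:**
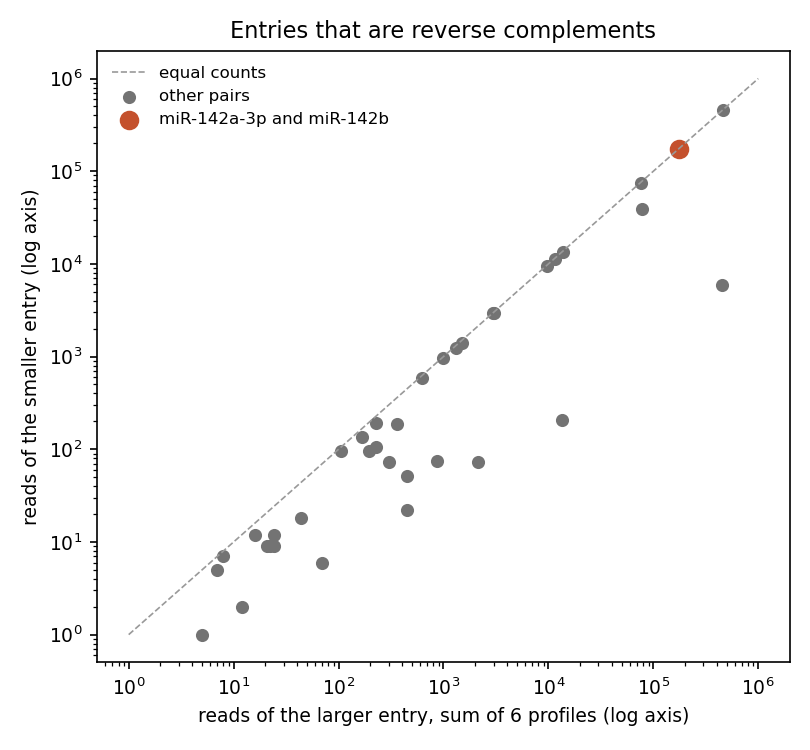
Each point is 1 of the 37 pairs of entries that share at least 19 bases as reverse complements, with the reads of the larger entry on the x axis and of the smaller on the y axis, both summed over 6 profiles on log axes. The pair of miR-142a-3p (171634 reads) and miR-142b (175109 reads) lies on the dashed line of equal counts.

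Profiles held 12416552 reads (M1), 15280434 (M2) and 8222508 (M3) in healthy mice. In CRC mice they held 6601899 (M4), 3565435 (M5) and 3206127 (M6). Every healthy profile was deeper than every CRC profile, so depth and group cannot be told apart. Levels are given as CPM, the depth-normalised count of edgeR, on totals scaled by TMM, its factor for differences in composition. Labelled libraries of mouse M1 number 2, and the single M1 profile was used as 1 healthy replicate. Smooth muscle miRNAs took 41.8% of all reads in M1, 48.2% (M2), 21.3% (M3), 20.9% (M4), 7.13% (M5) and 6.61% (M6), and miRNAs of epithelium 12.8% to 18.5%. The members' reads ran from 26, with a counting error of 19.6%, to 91653, with one of 0.33%. The labels give no batch or day of library preparation. With 1 profile per mouse, p-values rest on the spread between profiles, in which mouse, library and tissue composition cannot be told apart.

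miR-142a-3p, an arm of the blood cell hairpin mir-142a, varied between mice more than between the groups. It had 904 CPM (M1), 536 CPM (M2) and 9953 CPM (M3), all healthy, and 3181 CPM (M4), 4225 CPM (M5) and 5362 CPM (M6). M1 and M2 were low, the CRC mice lay between, and the healthy M3 was above every CRC mouse. The log2 fold change, CRC over healthy, was 0.16 (SE 0.91, adjusted p = 0.943 in edgeR's quasi-likelihood test). Its highest healthy value was 18.6 times its lowest, the fifth widest spread among the 279 entries with a mean of at least 50 CPM, whose median was 1.87. Within the CRC mice the same spread was 1.69.

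The other arm of the hairpin, miR-142a-5p, was far more even. Its levels were 631 CPM (M1), 505 CPM (M2) and 936 CPM (M3) against 817 CPM (M4), 521 CPM (M5) and 803 CPM (M6). The groups overlapped, and the highest value of all 6 was 1.85 times the lowest. Its log2 fold change was 0.047 (SE 0.41, adjusted p = 0.965, edgeR).

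miR-223-3p, the neutrophil and myeloid arm, had close group means (healthy 1636 CPM, CRC 1624 CPM). It had 1100 CPM (M1), 1352 CPM (M2), 2455 CPM (M3), 2361 CPM (M4), 1407 CPM (M5) and 1105 CPM (M6). M3 and M4, a healthy and a CRC mouse, were high, and the rest lay close together. The log2 fold change was -0.010 (SE 0.46, adjusted p = 0.991, edgeR). miR-223-5p, its scarce partner, ran from 7.42 CPM (M5) to 19.02 CPM (M4), with the healthy mice at 9.85 to 11.2 CPM.

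miR-150-5p, the lymphocyte arm, also overlapped between the groups. Its levels were 1172 CPM (M1), 774 CPM (M2) and 1909 CPM (M3), and 1575 CPM (M4), 610 CPM (M5) and 867 CPM (M6). As for miR-223-3p, M3 and M4 held the highest values. The log2 fold change was -0.34 (SE 0.50, adjusted p = 0.711, edgeR). The partner arm miR-150-3p had 3.92 CPM (M1) and 2.93 CPM (M2), from 35 and 26 reads, and 23.4 CPM (M3), 28.1 CPM (M4), 14.1 CPM (M5) and 12.3 CPM (M6). M1 and M2 were again below the other 4 mice, and CRC exceeded healthy by 0.85 log2 units (SE 0.79, adjusted p = 0.548, edgeR), or by 2.35 without M3 (adjusted p = 0.0564, edgeR) and 0.44 without M4.

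miR-342-3p was the most even of the 4 abundant arms among healthy mice. It had 613 CPM (M1), 579 CPM (M2) and 510 CPM (M3), and 728 CPM (M4), 543 CPM (M5) and 383 CPM (M6). Every healthy value lay inside the range of the CRC mice, and the log2 fold change was -0.041 (SE 0.40, adjusted p = 0.967, edgeR). miR-342-5p had 9.51 CPM (M1), 11.9 CPM (M2), 20.6 CPM (M3), 58.0 CPM (M4), 9.24 CPM (M5) and 14.9 CPM (M6). M4 alone stood high, and CRC exceeded healthy by 0.97 log2 units (SE 0.70, adjusted p = 0.426, edgeR), which became -0.15 without that mouse.

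**Figure D2:**
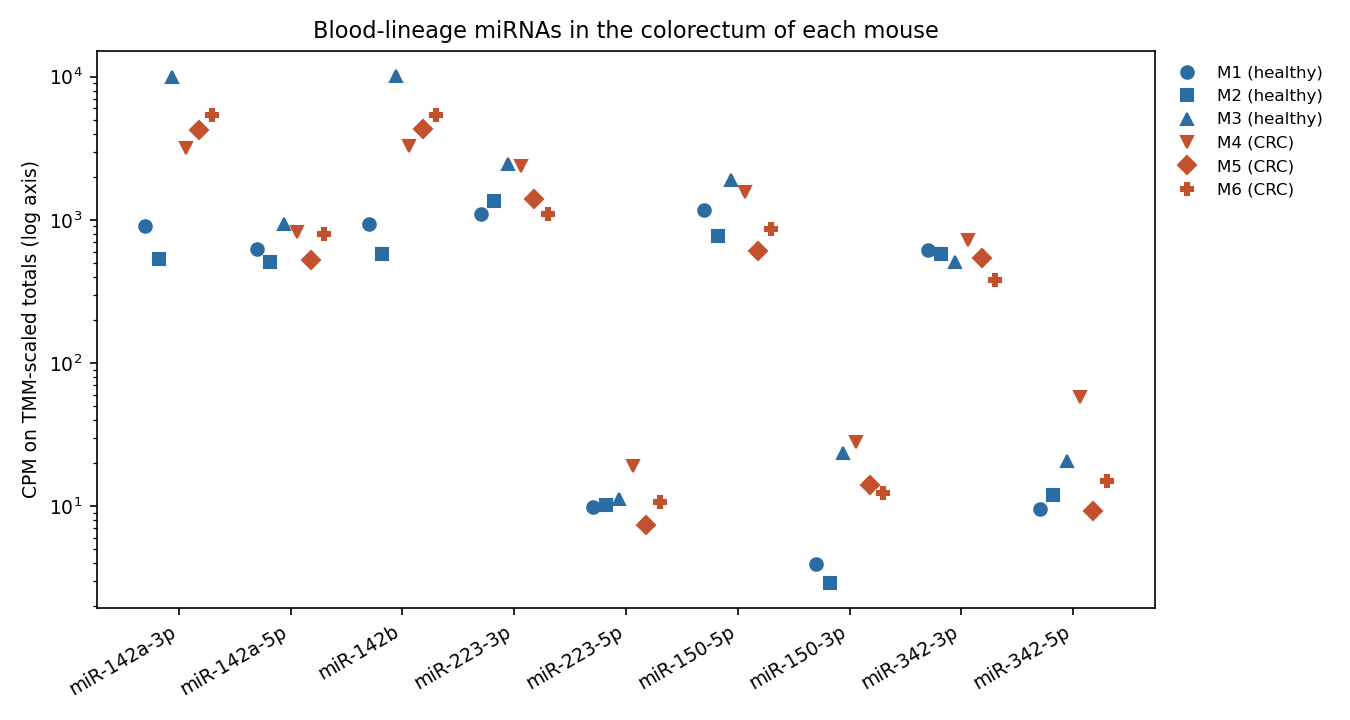
CPM on TMM-scaled totals (log axis) of the 9 entries, with 1 point per mouse, blue for the 3 healthy and red for the 3 CRC mice. For miR-142a-3p and miR-142b the healthy mice M1 and M2 lie lowest and the healthy M3 highest, at 9953 and 10100 CPM, while miR-342-3p stays between 383 and 728 CPM.

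Of the 9 members, all passed the filter on low counts, and 0 were called between the groups at an adjusted p of 0.05 (edgeR), where 2.28% of the 878 tested entries were called. At an unadjusted p under 0.05 it was 0 of 9, against 23.2% of all tested. DESeq2 and limma-voom also called 0 of 9, though limma-voom put miR-142a-3p at 1.30 (adjusted p = 0.402) and miR-150-3p at 1.40 (adjusted p = 0.287). In none of the 9 did the CRC values lie outside the healthy range on 1 side in all 3 mice, against 26.5% of all tested entries. The members' median log2 fold change was 0.16, with 6 positive, beside a median of -0.032 over all tested entries. With reverse-complement entries such as miR-142a-3p and miR-142b summed, 5 of 8 members were positive and their median was 0.099, beside -0.034 over all tested entries. The members' standard errors, between 0.40 and 0.91, can leave differences of several times that size uncalled in 3 against 3 mice. The smooth muscle miRNA miR-490-3p, at -2.77 (SE 0.63), was itself not called (adjusted p = 0.0518, edgeR).

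The healthy mouse M3 decided the value of miR-142a-3p. Without M3 its log2 fold change was 2.47 (SE 0.44, adjusted p = 0.0423, edgeR) and that of miR-142b 2.43, so 2 of 9 entries, whose counts were nearly equal in every mouse, rose, and 5.90% of all tested entries were called. Leaving out M1, M2 or M6 turned the sign, to -0.30, -0.32 and -0.061, none of them called. With M3 and M4 both left out, which leaves 2 mice a group, edgeR called 53.2% of all tested entries and 5 of the 9 members, a share near that of all entries. That pair of mice was chosen with earlier results of these data known. The values there were 2.47 for miR-142a-3p, 2.42 for miR-142b, 1.66 for miR-150-3p, -0.66 for miR-150-5p and -0.66 for miR-342-3p. M1 and M2 had the largest shares of smooth muscle reads and the deepest profiles, M5 and M6 the smallest shares and the shallowest profiles. The part of muscle share or depth in these values was not tested.

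**Figure D3:**
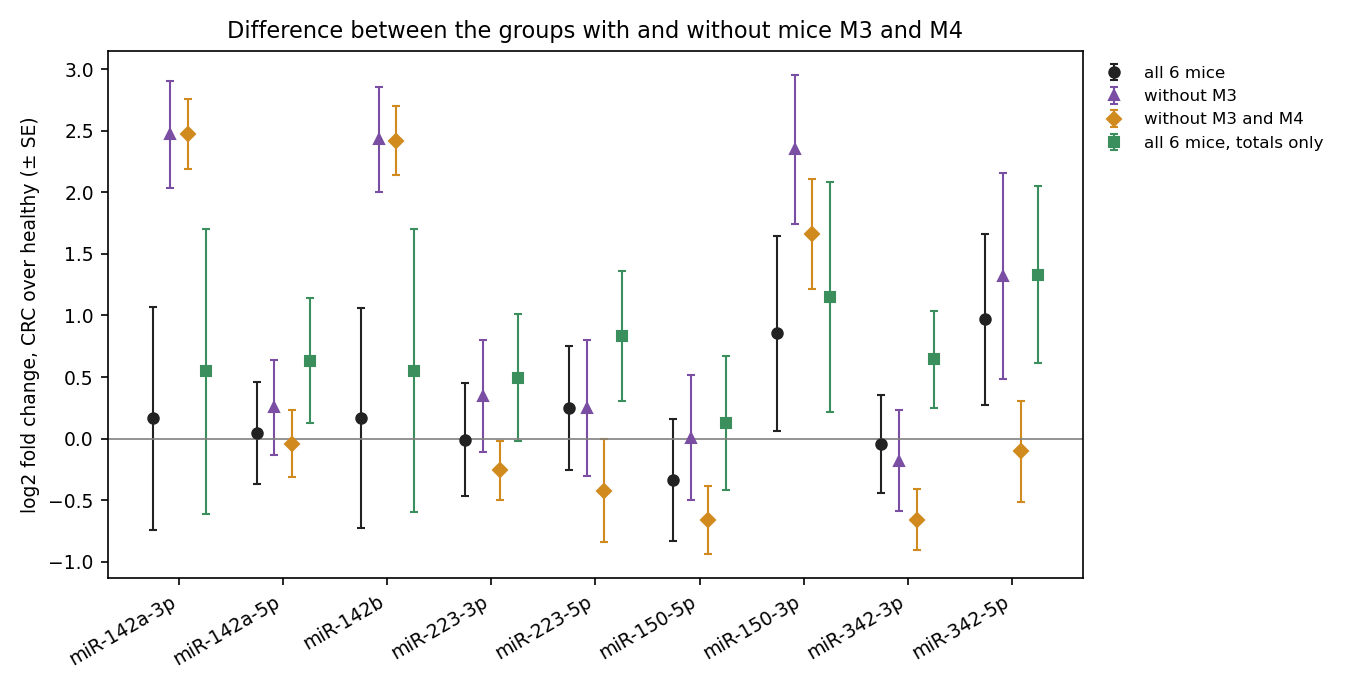
Log2 fold change of each entry, CRC over healthy, with its standard error, from all 6 mice (black), without M3 (purple), without M3 and M4 (orange) and with all mice scaled by totals alone (green). miR-142a-3p moves from 0.16 to 2.47 without M3, while miR-223-3p stays between -0.26 and 0.50.

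A ratio of arms within a mouse does not depend on how profiles are scaled. For mir-142a, the 3p arm held 1.43 times the reads of the 5p arm in M1 and 1.06 times (M2). It held 10.6 times (M3), 3.89 times (M4), 8.11 times (M5) and 6.68 times (M6). Both arms were thus close to equal in the healthy M1 and M2, and 3p was in excess in the other healthy mouse and in all CRC mice. The log2 ratio of 3p to 5p was 1.24 higher in CRC (SE 0.83, adjusted p = 0.509, limma), and the groups overlapped. Without M2 the difference was 0.61, and without M3 it was 2.27 (adjusted p = 0.0545, limma). Its spread among the healthy mice, 10.0-fold, ranked 8 of 234 hairpins. Over all hairpins, the median deviation of a mouse's log2 arm ratio lay between -0.083 and 0.058. The main arm is 3p in some hairpins and 5p in others, so a general shift between main and minor arms could cancel in that median. The arms of mir-142a do not differ in GC content by more than a base, at 34.8% for 3p and 33.3% for 5p. The part of GC content in the arm ratios was not tested.

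For mir-150, whose main arm is 5p, the arm ratios of the groups did not overlap, by a narrow margin. The 5p arm held 295 times the reads of the 3p arm in M1, 259 times (M2) and 81.5 times (M3). In the CRC mice it held 55.8 times (M4), 42.9 times (M5) and 69.7 times (M6). Every CRC mouse lay below every healthy one, and M3 lay near the CRC mice, as it did for mir-142a. The nearest values, 81.5 (M3) and 69.7 (M6), rested on 212 and 58 reads of miR-150-3p. Their counting errors were 6.87% and 13.1%, so the margin is of the order of the counting error. The log2 ratio of 3p to 5p was 1.74 higher in CRC (SE 0.61, unadjusted p = 0.0178, adjusted p = 0.197, limma). Groups did not overlap in 14.5% of the 234 hairpins tested, and limma called 0 of the 4 hairpins described here against 0.427% of all.

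mir-223 and mir-342 kept a large excess of 3p in every mouse. For mir-223 it ran from 103 times (M6) to 217 times (M3), a spread of 2.11-fold that was narrower than the median of 4.28-fold over all hairpins. For mir-342 it was 64.0 times (M1), 48.3 times (M2), 24.7 times (M3), 12.5 times (M4), 58.2 times (M5) and 25.5 times (M6). M4 was lowest, the mouse with the high miR-342-5p. Neither ratio was called (adjusted p = 0.883 and 0.637, limma). Without M3 and M4 limma called mir-142a (2.58) and mir-150 (2.34), in a fit that called 35.9% of all hairpins.

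**Figure D4:**
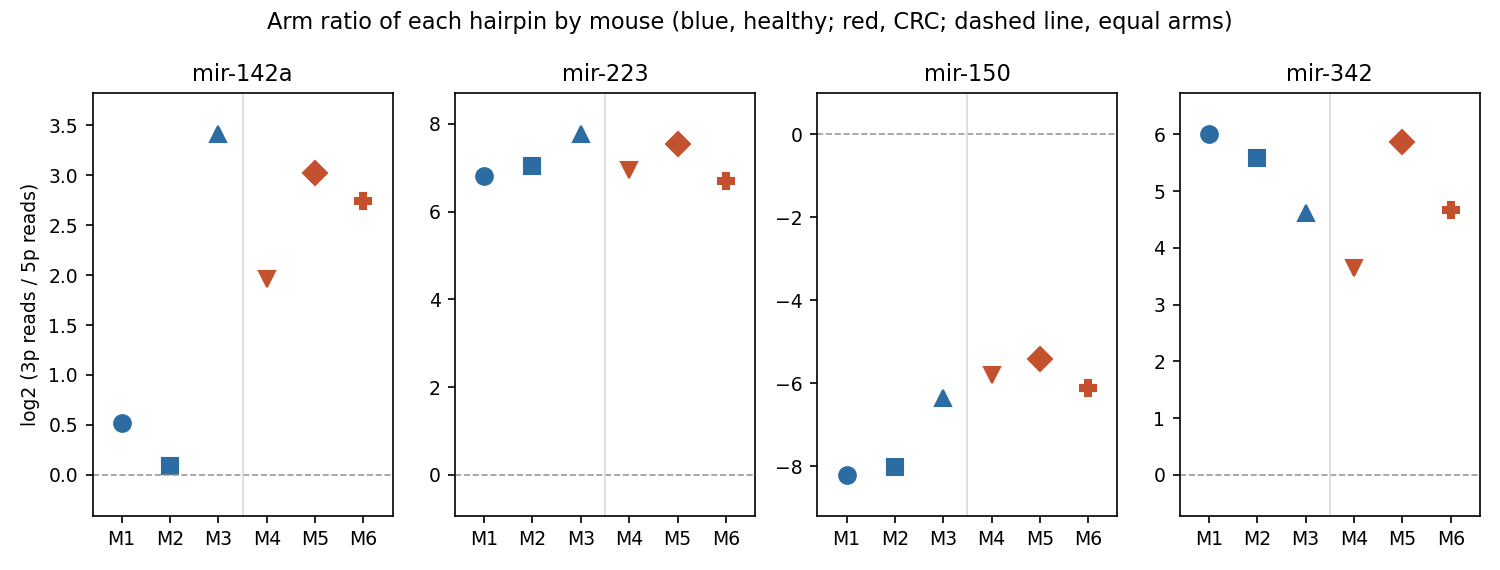
Log2 of 3p over 5p reads for each hairpin (y axis, a separate scale in each panel) in the 6 mice (x axis), blue for healthy and red for CRC; the dashed line marks equal arms. mir-142a lies near 0 (M1) and M2 (0.52 and 0.085) and between 1.96 and 3.41 in the other mice, and mir-150 is lowest in M1 and M2.

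The order of the 4 abundant arms differed between mice. In M3, M4, M5 and M6 it ran from miR-142a-3p through miR-223-3p and miR-150-5p to miR-342-3p. In M1 miR-150-5p and miR-223-3p were above miR-142a-3p, and in M2 miR-142a-3p was the lowest of the 4. By group mean, healthy mice had 3798 ± 5334 CPM of miR-142a-3p, 1636 ± 721 of miR-223-3p, 1285 ± 576 of miR-150-5p and 567 ± 52.4 of miR-342-3p (SD, n = 3). CRC mice had 4256 ± 1091, 1624 ± 656, 1017 ± 500 and 551 ± 173 CPM in that order (SD, n = 3). The group means of the neighbours miR-223-3p and miR-150-5p differed by no more than about their SD between mice in either group. Within a mouse, miR-223-3p was above miR-150-5p in all but M1.

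Ratios between these arms were compared too, since they are free of scaling. miR-223-3p over miR-150-5p, myeloid over lymphocyte, was 0.938 (M1), 1.75 (M2), 1.29 (M3), 1.5 (M4), 2.30 (M5) and 1.27 (M6). The groups overlapped, with a log2 difference of 0.35 (exact permutation p = 0.5, two-sided, adjusted p = 0.72 over 6 ratios). miR-142a-3p over miR-342-3p ran from 0.926 (M2) to 19.5 (M3), with 4.37 to 14.0 in the CRC mice (log2 difference 1.39, exact permutation p = 0.4, adjusted p = 0.72). That difference was 0.54 without M2 and 2.74 without M3. In 0 of the 6 ratios were the groups apart; the smallest p that 3 against 3 mice allow is 0.1, and the smallest found was 0.2.

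By Pearson's r of log2 CPM over the 6 profiles, the entries most like miR-142a-3p, among 273 others with a mean of at least 50 CPM, were miR-15a-5p (0.984), miR-93-5p (0.984), miR-33-5p (0.982), miR-20a-5p (0.970) and miR-339-5p (0.967). miR-20a-5p had 334 CPM (M1), 259 CPM (M2), 4290 CPM (M3), 1430 CPM (M4), 3060 CPM (M5) and 4760 CPM (M6). M1 and M2 were low there too. The 5 entries most like miR-223-3p were led by miR-34c-5p (0.935), those like miR-150-5p by miR-192-3p (0.963), with miR-146a-5p, a brake on inflammatory signalling, at 0.881, and those like miR-342-3p by miR-214-3p (0.884). Among the members, r was 0.822 between miR-150-5p and miR-142a-5p, 0.720 between miR-150-5p and miR-223-3p and -0.425 between miR-142a-3p and miR-342-3p. These values describe 6 points that share library and depth.

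A list of 28 other miRNAs of blood and immune cells, many of which other cells make too, was measured beside the members. Of its 26 tested entries 0 rose and 0 fell, 3 were at an unadjusted p under 0.05, and 11 were positive, with a median log2 fold change of -0.13. Its most abundant entries were miR-21a-5p (0.23, SE 0.29), miR-29b-3p (0.26, SE 0.33), miR-19b-3p (-0.46, SE 0.36) and miR-23a-3p (-0.78, SE 0.41). Red blood cell miRNAs had 0 of 7 called, 2 at an unadjusted p under 0.05, 6 positive and a median of 0.75. Over all tested entries, 426 of 878 were positive. That median of 0.75 is the value of miR-486a-5p, at 1.13 to 3.52 CPM. The miR-486 entries form reverse-complement pairs, with at most 227 reads an entry over the 6 profiles. miR-451a, which matures without Dicer, had 337, 271 and 479 CPM in healthy and 439, 1640 and 896 CPM in CRC mice. Smooth muscle had 0 of 12 called but 12 of 12 at an unadjusted p under 0.05, against 23.2% of all tested entries, with 0 positive and a median log2 fold change of -2.0. These 12 are not separate measurements, since they include both arms of some hairpins and the reverse-complement pair miR-1a-3p and miR-1b-5p. The lists for epithelium (10 tested), endothelium (2) and fibroblasts (5) had 0 called as well, with medians of -0.48, 0.19 and -0.59.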

How the data were processed

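Small RNA of colorectum was sequenced on an Ion Proton, per the labels' protocols, and, per the submitters' processing notes, aligned with BWA to mm10 (GRCm38). The table the authors deposited holds raw read counts of 1915 miRNA entries in 6 columns. The column M1 names a mouse with 2 labelled libraries and was used as 1 healthy replicate; the sources used here do not say whether it holds their sum. The labels give the groups.

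The main test of the counts was that of edgeR 4.0.16 under R 4.3.3 (TMM, filterByExpr with 878 entries kept, robust dispersions, glmQLFit and glmQLFTest, Benjamini-Hochberg over all entries at 0.05). The SE is the log2 fold change divided by the square root of F. Arm ratios (reads plus 0.5) were tested with limma 3.58.1 over 234 hairpins whose arms each averaged at least 10 reads, and ratios between members by exact permutation with scipy 1.17.1. DESeq2 1.42.0, limma-voom, other scalings and filters, removal of each profile's GC trend (loess, span 0.75), left-out mice and merged reverse-complement entries (19 bases) were alternatives, of which dropping such entries and using miR-142b as the 3p arm were added after seeing the data. The scripts were tested on simulated data. The rule for named miRNAs took all members, the 5 entries most like each abundant arm, of which some are printed, and the most abundant of each list. Members and lists were chosen with earlier results of these data known.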

Additional observations from a re-analysis of the deposited data

How the results depend on the processing

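With all 6 mice no tested member was called under any scaling, filter or tool tried (6 members remain at 50 CPM), but sizes and the sign of small values depended on these. limma-voom gave 1.30 for miR-142a-3p, 1.27 for miR-142b and 1.40 for miR-150-3p. On total counts alone, which raised all tested entries by a median of 0.71 log2 units, all 9 members were positive: miR-223-3p had 0.50, miR-150-5p 0.13 and miR-342-3p 0.64. miR-223-3p was also positive with upper quartile factors (0.011), with TMM factors computed without smooth muscle entries (0.058), in entries of at least 50 CPM (0.22), in limma-voom (0.0066) and with the GC trend removed (0.30). miR-342-3p was positive without smooth muscle entries in the scaling (0.048), at 50 CPM (0.22) and with the GC trend removed (0.0048). Without M3 and M4, 5 members and 2 arm ratios were called, and the sign turned for miR-142a-5p (-0.043), miR-223-5p (-0.42), miR-342-5p (-0.11) and the mir-223 arm ratio (0.19). Ratios between members share arms and are not separate results, and fewer mice in a group make groups without overlap more frequent. No share over ratios of other entries was computed to set beside them. Leaving out 1 mouse at a time, the members called ranged from 0 to 2 (the 2 without M3). The ratios between members whose groups did not overlap then ranged from 0 to 4 (4 without M3, 1 without M4). The log2 fold changes then ran from -0.32 to 2.47 for miR-142a-3p, -0.32 to 2.43 for miR-142b, -0.055 to 0.25 for miR-142a-5p, -0.32 to 0.34 for miR-223-3p, -0.12 to 0.54 for miR-223-5p, -0.71 to 0.0082 for miR-150-5p, 0.44 to 2.35 for miR-150-3p, -0.20 to 0.15 for miR-342-3p and -0.15 to 1.40 for miR-342-5p. The log2 differences ran from 0.61 to 2.27 for the mir-142a arm ratio, 1.40 to 2.33 for mir-150, -1.25 to -0.14 for mir-342 and -0.39 to 0.14 for mir-223. Among the ratios between members they ran from 0.56 to 2.24 for miR-142a-3p over miR-223-3p, 1.14 to 2.60 over miR-150-5p and 0.54 to 2.74 over miR-342-3p, 0.11 to 0.58 for miR-223-3p over miR-150-5p, -0.21 to 0.50 for miR-223-3p over miR-342-3p and -0.60 to 0.14 for miR-150-5p over miR-342-3p. The labels name no mouse in both groups and give no pairing of mice. The causes of these changes were not tested.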
